A study of Mus musculus with 56 samples.

Results

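Liver expression of 9 genes of glucose output and insulin response was followed across 56 mice. They were Pck1, G6pc and Fbp1, which encode enzymes of gluconeogenesis, Pklr, which encodes the liver and red cell pyruvate kinase of glycolysis, Irs1 and Irs2, the insulin receptor substrates, Foxo1 and Ppargc1a, which regulate transcription of this programme, and Igfbp1, a secreted binding protein for insulin-like growth factors. The genes were named for their place in insulin action, with earlier results of these data known, and their symbols were matched to Ensembl identifiers with the GENCODE vM21 annotation of GRCm38. All 9 were found among the 45513 genes listed, and all 9 were among the 14314 genes left by the filter on low counts.

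Insulin acts on the hepatocyte through its receptor and IRS1 and IRS2, and the kinase AKT then phosphorylates FOXO1 and moves it out of the nucleus. In fasting FOXO1 is nuclear and, with the coactivator PGC-1α encoded by Ppargc1a, drives Pck1, G6pc, Igfbp1 and also Irs2. Feeding reverses this and raises Pklr, which is driven by glucose through ChREBP. These genes therefore follow meals and the time of day, and the liver is the main source of circulating IGFBP1.

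The mice were females carrying the APOE*3Leiden and CETP transgenes, which give a lipoprotein profile closer to the human one. CETP is a human gene under its own flanking sequences, and control mice carry both transgenes too. All mice were 9 to 14 weeks old at the start and ate a Western-type diet with 15% cacao butter and 0.15% cholesterol. There were 7 groups of 8 mice. Control mice received the vehicle, 5% carboxymethyl cellulose, by gavage. Imatinib was given by gavage at 150 mg/kg 2 times a day, nilotinib at 10 or 30 mg/kg once a day, and ponatinib at 3 or 10 mg/kg once a day. These 3 drugs inhibit the BCR-ABL kinase of chronic myeloid leukaemia, and no leukaemia was present here. The last group received L-NAME, an inhibitor of nitric oxide synthases, at 0.12 to 0.20% in the drinking water together with vehicle gavage. By the study's methods the mice had free access to food during the study, and those on vehicle or kinase inhibitors were killed after 16 weeks. The hour of killing and the feeding state at killing are not given in the sources used here. The methods do not describe the L-NAME group.

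Library depth, taken as the reads assigned to genes, ran from 5342379 to 97473341 (median 7570238), and 1 L-NAME library held the highest number. The hepatocyte markers were present in every library, with a summed level of 60810 to 141600 CPM (edgeR's counts scaled to a common TMM library size) over 9 of 10 markers found. The share of uniquely aligned reads outside annotated genes was lowest in control mice at 7.97% ± 0.422 (SD, n = 8) and highest in the ponatinib 10 mg/kg group at 11.0% ± 1.99. It was 11.0% ± 2.44 in the L-NAME group, 10.0% ± 1.82 after imatinib, 8.53% ± 0.612 at the lower ponatinib dose, and 9.75% ± 0.691 and 10.5% ± 1.38 at the nilotinib doses of 10 and 30 mg/kg. This share therefore moved with treatment. For the 9 genes, the results below are also given with it as a term in the model where a call changed. Marker and list genes are given only from the fit without that term. The highest control mouse had 8.7%, and the lowest mice had 9.1% and 9.4% with nilotinib 10 and 30 mg/kg, 8.9% with ponatinib 10 mg/kg and 8.8% with L-NAME. In these groups the share and the treatment cannot be told apart, so a call lost or kept with that term does not show which of them the change followed. Of 8 stellate cell markers, 2 were lower with imatinib, 1 with ponatinib 3 mg/kg and 2 with ponatinib 10 mg/kg, Col1a1 among them each time. Of 8 Kupffer cell and macrophage markers, 4 were lower with imatinib, whose summed level was 421 to 883 CPM against 749 to 1520 CPM in control. In that list 1 marker was higher with nilotinib 30 mg/kg, 1 with L-NAME, and 2 were higher and 1 lower with ponatinib 10 mg/kg. Of 9 lymphocyte markers 1 was lower with imatinib, and of 4 red cell markers 2 were higher with ponatinib 10 mg/kg. No cholangiocyte, endothelial or neutrophil marker was called in any comparison with control. Adipocyte and exocrine pancreas markers summed to at most 12.5 and 15.7 CPM, and Lep was at 0 in every group but ponatinib 3 mg/kg with Pnlip at 0 in all groups. The part of cell makeup in the results below was not tested. Of the 9 hepatocyte markers, 5 were higher and 1 lower with imatinib, 4 and 2 for ponatinib 10 mg/kg, 3 and 2 each for nilotinib 30 mg/kg and L-NAME, and 1 was lower for nilotinib 10 mg/kg. Cps1 was among the lower ones each time. In whole liver, fewer cells of a type and less RNA per cell cannot be told apart.

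The promoters of 4 genes are shown because these genes carry the main results: Pklr had the clearest change, and Igfbp1, G6pc and Irs2 were the 3 that varied most together from mouse to mouse. Each sequence is from RefSeq on GRCm38.p6 and runs from 250 bases before the transcription start to 50 bases after it. Of the 2 RefSeq starts of Pklr, the downstream one is shown. Capitals mark motifs found on either strand: in Pklr the pair CACGGG and CCCGTG separated by 5 bases, the form of a carbohydrate response element, and in the other 3 the cores TGTTTTG or TATTTTG of the insulin response sequence.
Pklr, chr3:89136373-89136672, plus strand: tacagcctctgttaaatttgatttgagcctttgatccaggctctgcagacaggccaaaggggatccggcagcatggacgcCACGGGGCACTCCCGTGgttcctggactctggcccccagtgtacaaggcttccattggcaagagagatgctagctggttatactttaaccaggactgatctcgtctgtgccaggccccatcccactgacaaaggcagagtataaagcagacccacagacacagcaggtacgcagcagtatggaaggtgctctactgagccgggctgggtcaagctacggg
Igfbp1, chr11:7197537-7197836, plus strand: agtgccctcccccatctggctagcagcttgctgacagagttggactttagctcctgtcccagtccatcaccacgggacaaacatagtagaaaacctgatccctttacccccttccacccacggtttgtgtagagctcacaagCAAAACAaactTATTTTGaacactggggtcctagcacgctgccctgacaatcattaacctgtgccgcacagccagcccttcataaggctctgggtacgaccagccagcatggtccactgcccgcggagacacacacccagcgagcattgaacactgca
G6pc, chr11:101367466-101367765, plus strand: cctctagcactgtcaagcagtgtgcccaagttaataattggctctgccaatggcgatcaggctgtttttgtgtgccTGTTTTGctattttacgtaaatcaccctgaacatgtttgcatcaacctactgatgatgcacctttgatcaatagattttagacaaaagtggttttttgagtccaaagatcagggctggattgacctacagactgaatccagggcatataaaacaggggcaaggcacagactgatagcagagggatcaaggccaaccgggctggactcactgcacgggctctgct
Irs2, chr8:11008880-11009179, minus strand: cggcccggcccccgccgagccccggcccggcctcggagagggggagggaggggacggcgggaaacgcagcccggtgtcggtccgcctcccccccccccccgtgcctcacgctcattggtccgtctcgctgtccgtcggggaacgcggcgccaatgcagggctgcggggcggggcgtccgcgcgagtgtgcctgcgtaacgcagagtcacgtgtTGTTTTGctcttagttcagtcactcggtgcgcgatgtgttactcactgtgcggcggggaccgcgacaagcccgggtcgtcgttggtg
The first base of the Pklr pair lay 170 bases before the start. Of the 32851 promoters of this length searched, 1 held these exact letters (0.00304%), and it was the promoter of Pklr shown here. Looser forms of the carbohydrate response element were not searched, so this share does not show how rare the element is. TGTTTTG stood 174 bases before the start in G6pc, 37 bases before it in Irs2 and, read on the other strand, 108 bases before it in Igfbp1, where TATTTTG followed 11 bases downstream. TGTTTTG was found in 6.28% of all promoters and TATTTTG in 4.36%. Irs1 held TGTTTTG at 2 places, and the cAMP response site core TGACGT, present in 7.51% of all promoters, was found in Pck1 and Ppargc1a. None of these motifs was in the window of Fbp1 or Foxo1. These motifs overlap no other motif searched, and a match is a match of letters only.

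In control liver, the level per exon length, in CPM per kilobase, was highest for Fbp1 at 744 ± 131 (SD, n = 8), followed by Pck1 at 491 ± 105. Pklr followed at 168 ± 31.6, G6pc at 121 ± 47.4 and Igfbp1 at 61.5 ± 51.2. The regulators were far lower, with Foxo1 at 4.66 ± 0.718, Irs1 at 4.64 ± 0.769, Irs2 at 2.95 ± 0.996 and Ppargc1a at 2.03 ± 0.819. Pklr and G6pc, G6pc and Igfbp1, Foxo1 and Irs1, Irs1 and Irs2, and Irs2 and Ppargc1a differed by less than the sum of their SDs. The enzymes thus stood well above the signalling genes and regulators, and no control mouse had a regulator at the level of any enzyme. The spread between control mice also differed from gene to gene. It was 17.5% of the mean (coefficient of variation) for Fbp1, 21.4% for Pck1 and 18.8% for Pklr, against 39.1% for G6pc and 83.2% for Igfbp1.

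**Figure D1:**
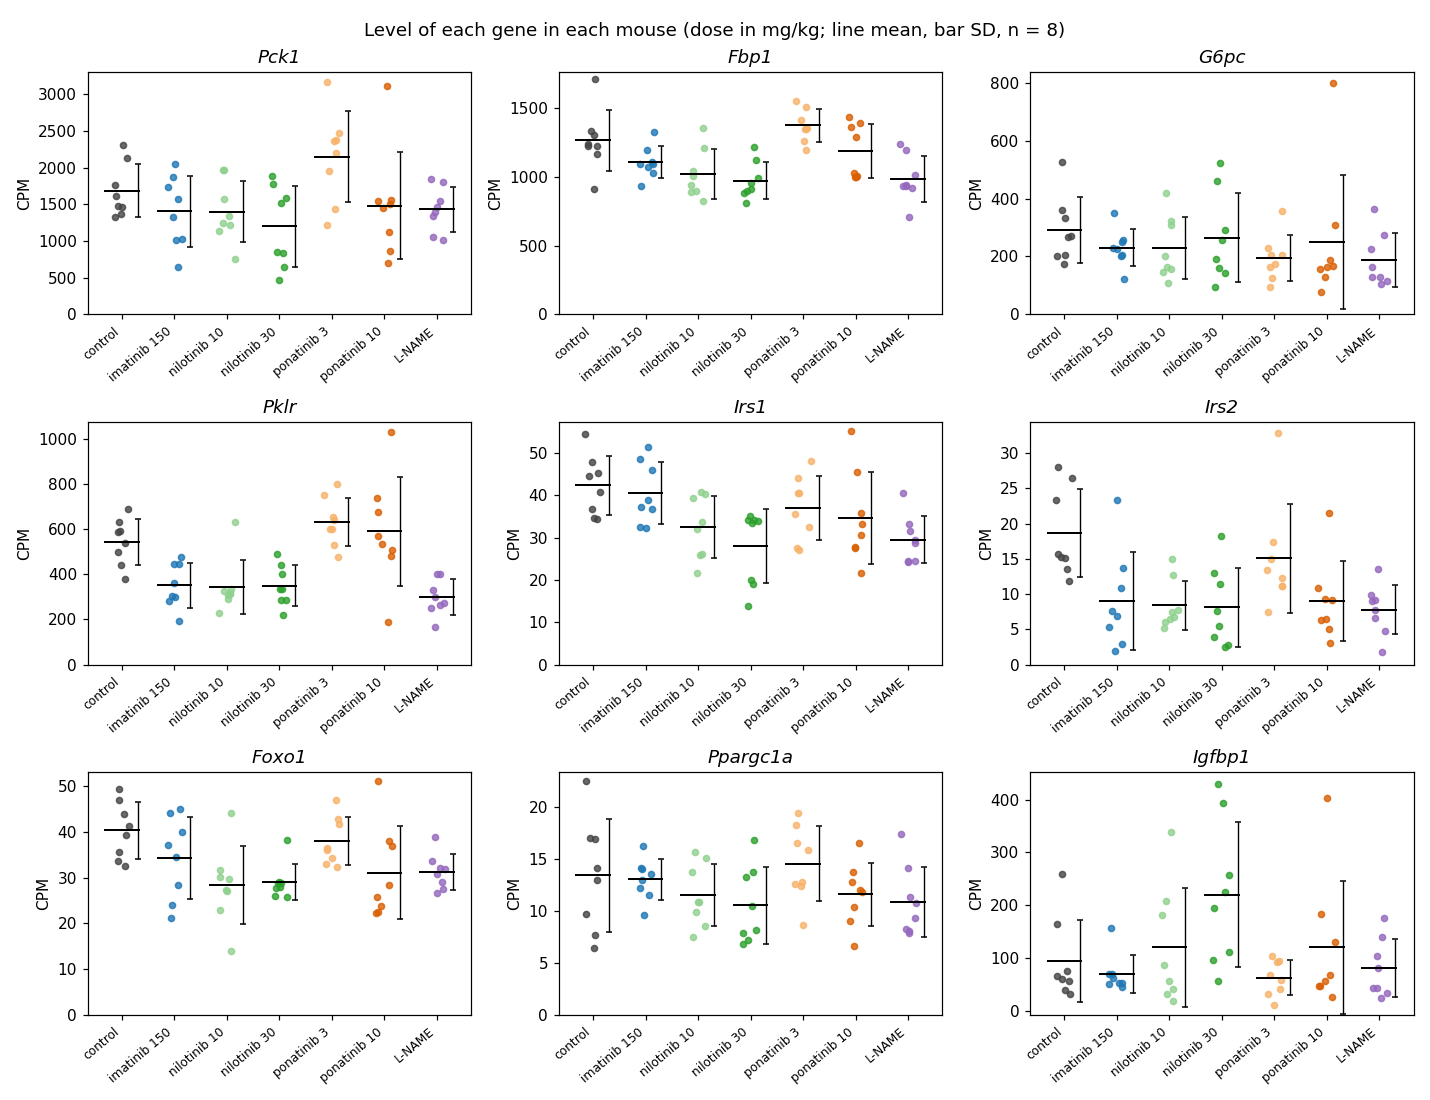
Level of each of the 9 genes (y axis, CPM, linear) in each of 8 mice of the 7 groups (x axis, dose in mg/kg). Points are mice, lines means and bars SDs. Pklr averages 350 CPM or less in the imatinib, nilotinib and L-NAME groups, against 544 CPM in control and 631 and 590 CPM with ponatinib, and in every treated group 7 or 8 of the 8 mice lie below the control mean of Irs2.

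Each treated group was compared with control by edgeR's quasi-likelihood test, and a gene was called at a Benjamini-Hochberg adjusted p below 0.05 over all tested genes. With nilotinib 30 mg/kg 4 of the 9 genes were lower (3.43% of all tested genes were called lower) and 0 higher (2.34% of all). With L-NAME 4 were lower (6.24% of all) and 0 higher (5.55% of all). With imatinib 1 was lower (4.58% of all) and 0 higher (5.69% of all). No member was called with nilotinib 10 mg/kg (0.943% of all tested genes lower, 0.468% higher), ponatinib 3 mg/kg (0.0419% lower, 0.0% higher) or ponatinib 10 mg/kg (5.87% lower, 7.24% higher). In edgeR's test 5, 0 and 2 members of these 3 groups had an unadjusted p below 0.05. DESeq2 called 1, 0 and 1, and limma voom with sample weights called 3, 0 and 2. For these settings the share of all tested genes is not given, here or below, so these counts cannot be set against it. The 6 comparisons share the same control mice.

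The median log2 fold change over the 9 genes was -0.47 with nilotinib 30 mg/kg, against 0.03 over all tested genes. It was -0.37 with L-NAME (0.02 over all), -0.35 with nilotinib 10 mg/kg (0.01 over all) and -0.26 with imatinib (-0.02 over all). The 3 mg/kg ponatinib group had -0.09 and the 10 mg/kg group -0.20, with -0.01 over all genes in both. The members' estimates were below 0 for 9 of 9 genes in the imatinib and L-NAME groups, for 8 of 9 at both nilotinib doses, and for 5 and 7 of 9 at the lower and higher ponatinib dose.

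**Figure D2:**
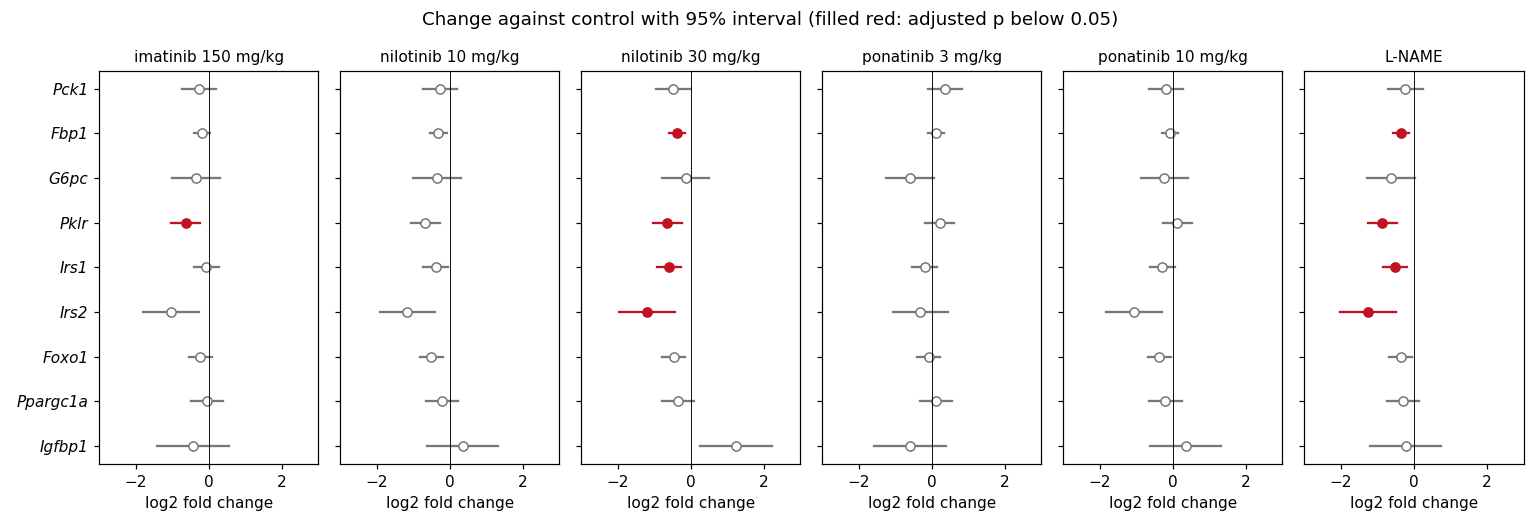
Log2 fold change against control (x axis) of the 9 genes (y axis) in 6 panels, 1 for each treated group. Circles are estimates, lines 95% intervals, and filled red marks an adjusted p below 0.05. Pklr lies left of 0 with imatinib, nilotinib and L-NAME and right of 0 at both ponatinib doses, while Irs2 lies left of 0 in all 6 panels.

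Among the gluconeogenic enzymes, Fbp1, fructose-1,6-bisphosphatase (chr13:62864753-62888282, minus strand, 7 exon blocks), was the one that was called. Its level in control mice was 916 CPM at the lowest, 1234 at the median and 1715 at the highest. With nilotinib 30 mg/kg these values were 809, 934 and 1217 CPM, and with L-NAME 711, 939 and 1240 CPM. All 8 mice of both groups lay below the control mean, but both ranges overlapped the control range. The log2 fold change was -0.38 ± 0.11 (SE, n = 8 against 8) with nilotinib 30 mg/kg (adjusted p = 0.0272) and -0.36 ± 0.11 with L-NAME (adjusted p = 0.0228). It was -0.31 with nilotinib 10 mg/kg (adjusted p = 0.140), -0.19 with imatinib (adjusted p = 0.294), 0.12 with ponatinib 3 mg/kg and -0.09 with ponatinib 10 mg/kg. When the share of reads outside genes was a term, the values were -0.31 with nilotinib 30 mg/kg (adjusted p = 0.261) and -0.28 with L-NAME (adjusted p = 0.249), both no longer called.

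Pck1, the cytosolic phosphoenolpyruvate carboxykinase (chr2:173153048-173159273, plus strand), passed the test in none of the 6 comparisons. Its mean was 1682 ± 361 CPM (SD, n = 8) in control, 1404 ± 484 with imatinib, 1398 ± 418 and 1198 ± 554 with nilotinib 10 and 30 mg/kg, and 1432 ± 307 with L-NAME. Ponatinib 3 mg/kg had the highest mean, 2150 ± 616 CPM, and 4 of its 8 mice exceeded every control mouse. The log2 fold changes ran from -0.49 (95% interval -0.96 to -0.02) with nilotinib 30 mg/kg to 0.35 (-0.12 to 0.82) with ponatinib 3 mg/kg, with adjusted p values of 0.244 and 0.658. Limma voom with sample weights called Pck1 lower with nilotinib 30 mg/kg (adjusted p = 0.00204), and DESeq2 did not (0.22). With ponatinib 10 mg/kg the mean was 1482 ± 733 CPM, of which 1 mouse had 3107 CPM and the next 1554.

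G6pc, the catalytic subunit of glucose-6-phosphatase (chr11:101367561-101377903, plus strand), had a mean of 292 ± 114 CPM (SD, n = 8) in control and lower means in all 6 treated groups, from 188 ± 92.5 with L-NAME to 265 ± 154 with nilotinib 30 mg/kg. It was 230 ± 64.1 CPM with imatinib, 229 ± 108 with nilotinib 10 mg/kg, 194 ± 79.7 with ponatinib 3 mg/kg and 248 ± 231 with ponatinib 10 mg/kg. None passed the test. The lowest of the 6 estimates, -0.63 with L-NAME, had a 95% interval from -1.29 to 0.02 (adjusted p = 0.227). With ponatinib 10 mg/kg the estimate was -0.23, and 1 mouse, number 4, had 798 CPM. Without that mouse it was -0.78 (adjusted p = 0.0609), which was not called either. The mice of every group overlapped the control range of 174 to 526.3 CPM.

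Pklr (chr3:89136142-89146784, plus strand, 14 exon blocks) showed the clearest difference between treatments. The lowest, median and highest control mice had 376, 562 and 688 CPM. With imatinib they had 191, 333 and 476 CPM, with nilotinib 30 mg/kg 219, 333 and 490 CPM, and with L-NAME 166, 286 and 402 CPM. All 8 mice of each of these 3 groups lay below the control mean, and 5, 5 and 6 of them lay below every control mouse. Nilotinib 10 mg/kg gave 228, 315 and 630 CPM, and 7 of its 8 mice lay below every control mouse while 1 lay within the upper control range. In contrast, ponatinib gave 476, 618 and 800 CPM at 3 mg/kg and 186, 551 and 1030 CPM at 10 mg/kg, so that at the higher dose the group held mice both below and above all controls.

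The log2 fold change of Pklr was -0.87 ± 0.20 (SE, n = 8 against 8) with L-NAME (adjusted p = 0.00207), -0.63 ± 0.20 with imatinib (adjusted p = 0.0294) and -0.64 ± 0.20 with nilotinib 30 mg/kg (adjusted p = 0.0395). With nilotinib 10 mg/kg it was of the same size, -0.66 ± 0.20, but the adjusted p was 0.0641, in a comparison where fewer genes passed. DESeq2 and limma voom with sample weights called Pklr lower there (adjusted p = 0.0292 and 0.00467). With ponatinib the log2 fold change was 0.21 (95% interval -0.18 to 0.61) at 3 mg/kg and 0.12 (-0.28 to 0.51) at 10 mg/kg. When the share of reads outside genes was a term, the estimates were -0.90 with L-NAME (adjusted p = 0.0217), -0.66 with imatinib (adjusted p = 0.0588) and -0.68 with nilotinib 30 mg/kg (adjusted p = 0.139). The estimates were thus of similar size with that term, and the call was kept with L-NAME. With nilotinib 30 mg/kg and L-NAME the share and the treatment cannot be told apart, so this does not show which of them Pklr followed. The exons of Pklr overlap those of Hcn3 on the other strand in the annotation, and the strand setting of the counting is not given in the sources used here.

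Pklr was also the gene called by edgeR when ponatinib 10 mg/kg was compared directly with the other drugs. At the same 10 mg/kg once a day it was higher with ponatinib than with nilotinib by 0.78 ± 0.20 log2 (SE, adjusted p = 0.0213), and it was the 1 member of 9 called (2.06% of all tested genes). Only the mg/kg was matched there, as the plasma exposures the study gives at this dose differed between the drugs. Against nilotinib 30 mg/kg, at unequal doses, ponatinib 10 mg/kg was higher by 0.76 ± 0.20 (adjusted p = 0.0275, again 1 of 9, 1.88% of all). Against imatinib, at 150 mg/kg given 2 times a day, it was higher by 0.75 ± 0.20 (adjusted p = 0.0396, 1 of 9, 1.08% of all). In these comparisons 7 of 8 ponatinib mice lay above the mean of the other group and 1 lay below all its mice. Without that mouse, number 2 of the group, the differences were 0.92, 0.89 and 0.89 (adjusted p = 0.00198, 0.00301 and 0.00367). Without mouse number 4, which had the highest level, they were 0.62, 0.60 and 0.59 (adjusted p = 0.0569, 0.0881 and 0.122) and were no longer called. The call was also lost in all 3 comparisons without ponatinib mouse 3 (adjusted p = 0.0506, 0.0536 and 0.0825). Limma voom with sample weights called the difference from nilotinib 10 mg/kg (adjusted p = 0.0305), but not that from nilotinib 30 mg/kg (0.0664) or imatinib (0.0902). When the share of reads outside genes was a term, both nilotinib differences were called (adjusted p = 0.0367 and 0.0315) and the imatinib difference of 0.74 was not (0.0574).

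Of the insulin receptor substrates, Irs2 (chr8:10984681-11008458, minus strand, 2 exon blocks) had the largest falls in the estimate. The lowest, median and highest control mice had 11.9, 15.4 and 28.1 CPM. With nilotinib 30 mg/kg these were 2.50, 6.54 and 18.3 CPM, and with L-NAME 1.80, 8.34 and 13.5 CPM. All 8 mice of both groups lay below the control mean, 6 and 7 of them below every control mouse, and the lowest library of each held 19 and 14 reads of the gene. The log2 fold change was -1.20 ± 0.38 (SE, n = 8 against 8) with nilotinib 30 mg/kg (adjusted p = 0.0450) and -1.26 ± 0.38 with L-NAME (adjusted p = 0.0198). The other groups but ponatinib 3 mg/kg had estimates of similar size that were not called: -1.16 with nilotinib 10 mg/kg (adjusted p = 0.0984), -1.06 with ponatinib 10 mg/kg (adjusted p = 0.0503) and -1.03 with imatinib (adjusted p = 0.0682). Their means were 8.39 ± 3.51, 8.96 ± 5.67 and 9.07 ± 6.96 CPM (SD, n = 8), and 6, 7 and 6 of their mice lay below every control mouse. Limma voom with sample weights called Irs2 lower in each of these groups (adjusted p = 0.0125, 0.0015 and 0.00763). DESeq2 called it with ponatinib 10 mg/kg (adjusted p = 0.0342) and imatinib (0.0422). Without ponatinib 10 mg/kg mouse 4, which had 21.5 CPM, the highest of its group, the estimate for that group was -1.39 and was called by edgeR (adjusted p = 0.00747). Leaving out the highest mouse moved the group away from control, so this call is no support for a fall. With ponatinib 3 mg/kg the mean was 15.1 ± 7.76 CPM and the estimate -0.31 (95% interval -1.05 to 0.43). When the share of reads outside genes was a term the estimates were smaller, -0.81 with nilotinib 30 mg/kg (adjusted p = 0.438) and -0.86 with L-NAME (adjusted p = 0.325).

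Irs1 (chr1:82233101-82291416, minus strand, 2 exon blocks) was called in the same groups but with smaller changes. The lowest, median and highest control mice had 34.4, 42.7 and 54.5 CPM, against 13.9, 33.7 and 35.1 CPM with nilotinib 30 mg/kg and 24.2, 29.1 and 40.4 CPM with L-NAME. In both groups 7 of 8 mice lay below every control mouse. The log2 fold change was -0.60 ± 0.17 (SE, n = 8 against 8) with nilotinib 30 mg/kg (adjusted p = 0.0223) and -0.52 ± 0.17 with L-NAME (adjusted p = 0.0327). It was -0.38 with nilotinib 10 mg/kg (adjusted p = 0.269), -0.29 with ponatinib 10 mg/kg (adjusted p = 0.285), -0.20 with ponatinib 3 mg/kg (adjusted p = 0.773) and -0.07 with imatinib (adjusted p = 0.874). The imatinib mean was 40.5 ± 7.31 CPM, so imatinib and nilotinib 30 mg/kg differed by 0.53 (95% interval 0.19 to 0.87, adjusted p = 0.0631), which was not called. When the share of reads outside genes was a term the estimates were -0.62 with nilotinib 30 mg/kg (adjusted p = 0.105) and -0.54 with L-NAME (adjusted p = 0.134). Irs1 and Irs2, like Foxo1 below, each share exon sequence with a gene on the other strand in the annotation.

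Foxo1 (chr3:52268336-52353221, plus strand) had a mean of 40.4 ± 6.23 CPM (SD, n = 8) in control, 34.3 ± 9.00 with imatinib, 28.4 ± 8.48 and 29.1 ± 3.93 with nilotinib 10 and 30 mg/kg, 38.0 ± 5.26 and 31.1 ± 10.2 with ponatinib 3 and 10 mg/kg, and 31.3 ± 3.92 with L-NAME. None passed the test. The lowest estimates were -0.51 with nilotinib 10 mg/kg (95% interval -0.83 to -0.19, adjusted p = 0.0819) and -0.47 with nilotinib 30 mg/kg (-0.79 to -0.15, adjusted p = 0.0660), and 7 of 8 mice at each nilotinib dose lay below every control mouse. Without 1 mouse of its own group, nilotinib 10 mg/kg number 7 or nilotinib 30 mg/kg number 2, Foxo1 was called lower (adjusted p = 0.0410 and 0.0419). It was also called with nilotinib 30 mg/kg without control mouse 6 (adjusted p = 0.04997). With ponatinib 10 mg/kg it was called without mouse 2 of that group (-0.52, adjusted p = 0.0190). Each treated mouse left out here had the highest Foxo1 of its group, and control mouse 6 had the lowest of control. Leaving them out therefore moved the groups apart, and these calls are no support for a fall. The other tools differed for Foxo1. Limma voom with sample weights called it lower with imatinib (adjusted p = 0.0368), nilotinib 10 and 30 mg/kg (0.042 and 0.000784), ponatinib 10 mg/kg (0.00153) and L-NAME (0.00993). DESeq2 called it lower with nilotinib 30 mg/kg (adjusted p = 0.0448). Ppargc1a (chr5:51454250-51567726, minus strand) differed least from control. Its mean was 13.4 ± 5.40 CPM in control and in the treated groups ran from 10.5 ± 3.70 (nilotinib 30 mg/kg) to 14.5 ± 3.57 (ponatinib 3 mg/kg), and the 6 estimates ran from -0.35 to 0.12. The interval that reached farthest below 0 was -0.79 to 0.10, with nilotinib 30 mg/kg.

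Igfbp1 (chr11:7197782-7202546, plus strand, 4 exon blocks) had the highest coefficient of variation of the 9 genes in control mice. The lowest, median and highest control mice had 31.5, 63.3 and 258 CPM. With nilotinib 30 mg/kg they had 55.6, 210 and 430 CPM, and with imatinib 45.0, 57.7 and 156 CPM. Of the 8 mice given nilotinib 30 mg/kg, 7 lay above the control mean, yet the ranges overlapped widely. Means in the other groups were 80.2 ± 55.1 CPM (SD, n = 8) for L-NAME, 62.5 ± 33.3 and 120 ± 126 for the lower and higher ponatinib dose, and 120 ± 113 for nilotinib 10 mg/kg. Against control the log2 fold change with nilotinib 30 mg/kg was 1.23 ± 0.49 (SE, adjusted p = 0.138), so it was not called by edgeR, and no other group was called either. Limma voom with sample weights called Igfbp1 higher with nilotinib 30 mg/kg (adjusted p = 0.000424), and DESeq2 did not (0.0988). Compared directly by edgeR, at unequal doses, Igfbp1 was lower with imatinib than with nilotinib 30 mg/kg by -1.66 ± 0.50 log2 (adjusted p = 0.0458). It was the 1 member of 9 called in that comparison (3.59% of all tested genes), all 8 imatinib mice lay below the nilotinib mean, and when the share of reads outside genes was a term the difference was -1.78 (adjusted p = 0.0224). The call depended on single mice: of 16 edgeR fits that each left out 1 mouse of these groups, 4 kept it (adjusted p up to 0.124).

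Between the 2 doses of a drug no member was called. For nilotinib 30 against 10 mg/kg (0.0% of all tested genes called) edgeR gave no member with an unadjusted p below 0.05, and neither DESeq2 nor limma voom called one. The interval of the dose difference was -0.37 to 0.42 for Pklr, -0.81 to 0.72 for Irs2 and -0.11 to 1.85 for Igfbp1, on the log2 scale. For ponatinib 10 against 3 mg/kg (1.39% of all called) 0 members were called by edgeR and DESeq2 and 3 by limma voom, and edgeR gave 1 an unadjusted p below 0.05. This was Pck1, at 1482 against 2150 CPM (log2 difference -0.54 ± 0.24, adjusted p = 0.269). Without ponatinib 10 mg/kg mouse number 2, the mouse with 3107 CPM, the Pck1 difference was -0.78 (adjusted p = 0.0504). For Irs2 the difference between the ponatinib doses was -0.75 (95% interval -1.51 to 0.00).

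Within groups the genes did not vary as 1 block. After subtraction of the group means from log2 CPM (prior count 2), G6pc and Igfbp1 had the highest Pearson correlation of the 36 pairs, 0.73 over 56 mice (Spearman 0.70), and it was above 0 within all 7 groups. G6pc and Irs2 reached 0.60 and Irs2 and Igfbp1 0.53. Irs1, whose promoter also held the core TGTTTTG, had 0.34 with G6pc, 0.24 with Igfbp1 and 0.42 with Irs2. Pck1 did not vary with G6pc (-0.03) and had its lowest value with Pklr, -0.37, below 0 within all 7 groups. Pklr and Fbp1 had 0.43, and Fbp1 and Ppargc1a 0.43. Foxo1 had at most 0.35 with any of the other genes, reached with Fbp1. All points of a pair come from the same libraries and share their depth. The correlation with the share of reads outside genes was between -0.27 and 0.07 for the 9 genes, and that with log2 depth between -0.28 and 0.08.

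**Figure D3:**
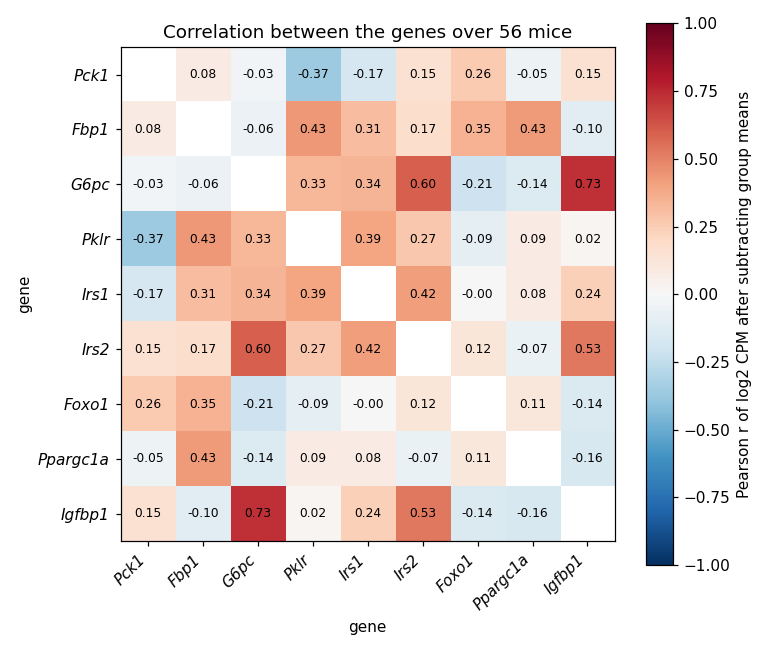
Pearson correlation between the 9 genes (both axes) over 56 mice, from log2 CPM after subtraction of each group's mean. Red is above 0 and blue below 0, with the value in each cell. G6pc, Igfbp1 and Irs2 have the highest values, 0.53 to 0.73, and Pck1 and Pklr the lowest, -0.37.

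Over the 13303 tested genes with a mean of at least 1 CPM, the genes most like Pklr by this measure were Acly, Fasn and Me1 (0.83, 0.82 and 0.82), all of fatty acid synthesis. Igfbp1 was most like Irf2bp2 (0.78), G6pc (0.73) and Sumo3 (0.72), and G6pc most like Igfbp1 (0.73), Ap2a2 (0.72) and Glud1 (0.71). Irs2 was most like Eif4ebp2 (0.75), Gm20056 and Hnf4a (both 0.68), and Fbp1 most like Atp5a1 (0.80), Sqor (0.77) and Aldh1l1 (0.75). Pck1 was most like Mfsd2a (0.65), Pim3 and Slc25a47 (both 0.64). The other 3 had lower values, with Foxo1 most like Fxr1 (0.60), Ndfip1 and March6 (both 0.57), Ppargc1a most like Sult1a1 (0.59), Kng2 (0.57) and Hpd (0.56), and Irs1 most like Cps1, Pygl and Sult1d1 (all 0.56).

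The wider pathways were described with lists of genes, whose called members are counted below and whose medians are log2 fold changes against control. These calls are from the fit without the share of reads outside genes as a term. The share of all tested genes called in the same comparison and direction stands beside the counts, and a list's count at or near it is no result about the list. At most 3 called genes of a list are named per comparison, those of the largest change. A gene can therefore also have been called in a group not named for it. Of 13 tested genes raised by insulin or feeding, 6 were lower with L-NAME (median -0.49), where 6.24% of all tested genes were lower. Among them, Gpam was at 37.7 against 124 CPM (-1.72 ± 0.34, SE), Acly, ATP citrate lyase, at 151 against 495 CPM (-1.71 ± 0.37) and Fasn, fatty acid synthase, at 492 against 1320 CPM (-1.42 ± 0.31). Acly and Fasn are also the genes whose mouse-to-mouse variation was most like that of Pklr. With nilotinib 3 of the list were lower at 30 mg/kg (3.43% of all, median -0.21) and 2 at 10 mg/kg (0.943% of all, median -0.08), Acly and the desaturase Scd1 at both. With imatinib 1 was lower, Scd1, at 12500 against 24500 CPM (4.58% of all, median of the list -0.18). With ponatinib 10 mg/kg 2 were higher (7.24% of all) and 1 lower (5.87% of all, median 0.21). Pnpla3, a lipid droplet protein, rose from 41.2 to 159 CPM (1.95 ± 0.45) and Acaca, acetyl-CoA carboxylase, from 69.0 to 109 CPM (0.66 ± 0.20), while Scd1 fell. With ponatinib 3 mg/kg none was called (median 0.10).

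Of 19 tested genes of gluconeogenesis and glucose output, 5 were lower (3.43% of all) and 1 higher (2.34% of all) with nilotinib 30 mg/kg (median -0.08). With L-NAME 4 were lower (6.24% of all) and 1 higher (5.55% of all, median -0.14). Tat, tyrosine aminotransferase, had 1020 CPM in control and was lower with imatinib (663 CPM), nilotinib (615 and 560 CPM at 10 and 30 mg/kg) and L-NAME (593 CPM). Pcx, pyruvate carboxylase, was lower with nilotinib 10 mg/kg, ponatinib 10 mg/kg and L-NAME, at 549, 535 and 522 CPM against 762. Mpc2, of the mitochondrial pyruvate carrier, was higher with imatinib, ponatinib 10 mg/kg and L-NAME, at 280, 264 and 243 CPM against 172. Not all called genes of nilotinib 30 mg/kg are named, so Pcx and Mpc2 can be among them. In all, 3 were lower (4.58% of all) and 1 higher (5.69% of all) with imatinib (median -0.02), and 2 lower with nilotinib 10 mg/kg (0.943% of all, median -0.08). With ponatinib 10 mg/kg 1 was lower (5.87% of all) and 2 higher (7.24% of all, median 0.08), and with ponatinib 3 mg/kg none was called (median 0.10).

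Of 19 glycolysis and glucose uptake genes, 4 were higher with ponatinib 10 mg/kg (7.24% of all, median -0.02), among them Khk, ketohexokinase, at 783 against 551 CPM (0.51 ± 0.14, SE), Eno1 and Gckr. With imatinib 1 was higher (5.69% of all) and 2 lower (4.58% of all, median 0.03). Both lower genes, Hk3 and Pkm, are known from leukocytes and other non-parenchymal cells, and 4 of 8 Kupffer cell and macrophage markers were lower in the same group, whose part was not tested. Tkfc was lower with L-NAME (1 of 19, 6.24% of all, median -0.05), and none was called with nilotinib 10 or 30 mg/kg or ponatinib 3 mg/kg (medians 0.03, 0.01 and 0.00). Of 14 glycogen genes, 4 were lower with L-NAME (6.24% of all, median -0.22) and 3 with nilotinib 30 mg/kg (3.43% of all, median -0.36). Gbe1, the branching enzyme, had 176 CPM in control and was lower with imatinib (122 CPM), nilotinib 30 mg/kg (102 CPM), ponatinib 10 mg/kg (102 CPM) and L-NAME (90.1 CPM). It was the 1 glycogen gene called with imatinib (4.58% of all lower, median 0.08), ponatinib 10 mg/kg had 1 lower and 1 higher (5.87% and 7.24% of all, median 0.05), and no glycogen gene was called with nilotinib 10 mg/kg (median -0.15) or ponatinib 3 mg/kg (median -0.01).

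Of 28 insulin receptor signalling genes, 4 were lower (5.87% of all) and 1 higher (7.24% of all) with ponatinib 10 mg/kg (median -0.28). Lower too were 3 with nilotinib 30 mg/kg (3.43% of all, median -0.10), 3 with L-NAME (6.24% of all, median -0.11) and 1 with nilotinib 10 mg/kg (0.943% of all, median -0.10). Pik3r1, the regulatory subunit of phosphoinositide 3-kinase, was lower with nilotinib 30 mg/kg and ponatinib 10 mg/kg, at 54.3 and 54.7 against 76.6 CPM. None of the 28 genes was called with imatinib (median -0.12) or ponatinib 3 mg/kg (median -0.01). Of 26 partners of FOXO and PGC-1 and hormone-responsive regulators, 4 were higher and 1 lower with ponatinib 10 mg/kg (7.24% and 5.87% of all, median -0.05), and 1 higher and 3 lower with nilotinib 30 mg/kg (2.34% and 3.43% of all, median -0.16). With L-NAME 2 were higher and 1 lower (5.55% and 6.24% of all, median -0.09), and with imatinib 1 was higher and 1 lower (5.69% and 4.58% of all, median -0.06). Gcgr, the glucagon receptor, rose from 298 CPM to 428 with imatinib, 454 with ponatinib 10 mg/kg and 437 with L-NAME. The 1 gene of this list called higher with nilotinib 30 mg/kg is not named here. Foxo3 fell from 47.5 CPM to 30.0 in the nilotinib 30 mg/kg group and 30.1 in the ponatinib 10 mg/kg group. The low doses of nilotinib and ponatinib had none (medians -0.02 and 0.09).

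Of 20 genes raised by fasting, glucagon or glucocorticoid, 3 were higher and 1 lower with imatinib (5.69% and 4.58% of all, median 0.06), and 3 lower with nilotinib 30 mg/kg (3.43% of all, median 0.10). With L-NAME 1 was higher and 2 lower (5.55% and 6.24% of all, median -0.13), and with ponatinib 3 mg/kg 1 was lower (0.0419% of all, median -0.01). Ppara, the fatty acid receptor of the fasting response, had 45.2 CPM in control and was lower with imatinib (25.9 CPM), nilotinib 30 mg/kg (14.8 CPM) and L-NAME (24.5 CPM). Igfbp2, another binding protein of insulin-like growth factors, was higher with imatinib and L-NAME, at 591 and 602 against 341 CPM. With ponatinib 3 mg/kg the gene was Cdkn1a, a cell cycle inhibitor, at 2.11 against 16.0 CPM. None was called with nilotinib 10 mg/kg or ponatinib 10 mg/kg (both medians 0.03). Of 16 circadian clock genes, 2 were lower with nilotinib 30 mg/kg (3.43% of all, median -0.43), Bhlhe40 at 75.0 against 171 CPM and Cry2 at 31.1 against 48.8 CPM. None was called in the other 5 groups, with medians of -0.03 for L-NAME, -0.11 for imatinib, 0.23 and 0.11 for the lower and higher ponatinib dose and -0.02 for nilotinib 10 mg/kg.

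**Figure D4:**
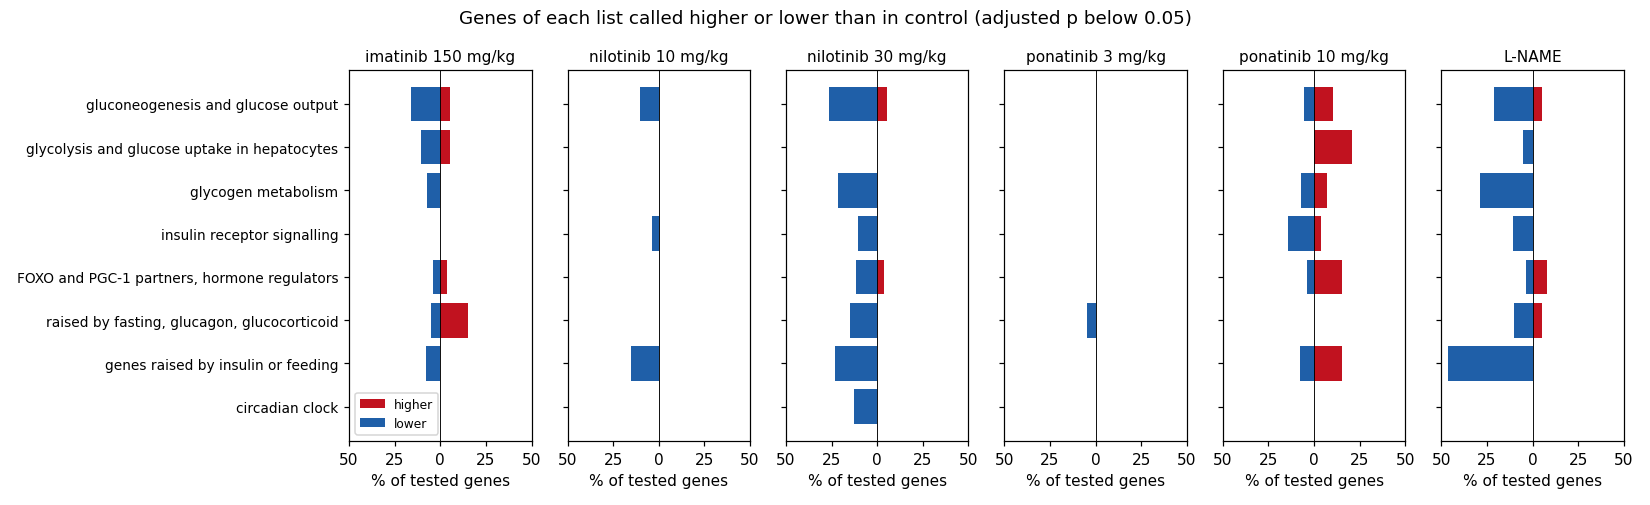
Share of the tested genes of each list (y axis) called higher (red, right) or lower (blue, left) than in control at an adjusted p below 0.05 (x axis, % of tested genes), in 6 panels for the treated groups. With L-NAME 6 of 13 genes raised by insulin or feeding are lower, ponatinib 10 mg/kg has 2 of these higher and 1 lower, and ponatinib 3 mg/kg has 1 called gene over all lists.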

How the data were processed

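Liver RNA of 56 mice was sequenced as poly(A) libraries on a NextSeq 500. The authors deposited raw HTSeq counts per gene for each mouse, without normalization. Per the labels and the study's methods, reads were aligned to GRCm38 with TopHat2 2.0.14 and Bowtie2 2.1.0, handled with SAMtools 0.1.18 and counted with HTSeq 0.6.1p1. Reads on several places or several genes were counted on none. The strand setting and the annotation release are not given in the sources used here. The summary rows of HTSeq were left out of library sizes.

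Counts were tested with edgeR 4.0.16 (R 4.3.3) by its quasi-likelihood test, TMM normalization and filterByExpr, in a single fit of 56 mice with 12 contrasts, and adjusted by Benjamini and Hochberg over 14314 genes. Intervals are 95% intervals of that fit. Nothing in the labels marks a batch. Replicates are separate mice, numbered 1 to 8 in accession order, and no pair of libraries agreed within sampling noise (lowest chi-square per degree of freedom 10.8 over 196 pairs). The test was tried on simulated counts with known changes. Alternatives used DESeq2 1.42.0, limma 3.58.1, another scaling, no filter, other sets of mice, a covariate and other thresholds.

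Of 45513 identifiers, 44585 matched a GENCODE vM21 symbol, as did 226 of 229 list symbols. The genes and lists were chosen with earlier results of these data known. All 9 genes are named, and of each list at most 3 called genes per comparison with control, those of the largest change with a mean of at least 1 CPM. The values of 1 list gene are not reported here. For likeness the 3 genes with the highest correlation are named.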

Additional observations from a re-analysis of the deposited data

Results flagged for a closer look

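Of 63 sets of 8 mice (9 genes in 7 groups), 8 had a highest mouse far above the others, by Dixon's criterion of a gap above 0.526 of the range. Chance flags about 1 in 20 sets only where values are normally distributed and the sets are independent. CPM values were not shown to be normal, and the 9 genes come from the same mice, so the 8 flags cannot be measured against that share. No set had a mouse far below the others. In the ponatinib 10 mg/kg group mouse number 4 was the highest for G6pc (798 CPM, next 309), Irs2 (21.5 CPM, next 10.9) and Igfbp1 (404 CPM, next 184), the 3 genes that also correlated most over all mice. In the same group mouse number 2 was the highest for Pck1 (3107 CPM, next 1554) and had the lowest Pklr (186 CPM). The other 4 lay in different groups. Nilotinib 10 mg/kg mouse 2 had 630 CPM of Pklr (next 334) and nilotinib 30 mg/kg mouse 2 had 38.3 CPM of Foxo1 (next 29.2). Ponatinib 3 mg/kg mouse 8 had 32.9 CPM of Irs2 (next 17.3) and imatinib mouse 8 had 156 CPM of Igfbp1 (next 69.2). Without nilotinib 10 mg/kg mouse 2, Pklr was called lower in that group (adjusted p = 0.0167 by edgeR). Without imatinib mouse 8, Irs2 was called lower with imatinib (adjusted p = 0.0109), and without ponatinib 10 mg/kg mouse 4 it was called lower with that dose (adjusted p = 0.00747). Foxo1 was called lower with ponatinib 10 mg/kg without mouse 2 of the group (adjusted p = 0.0190). In each of these fits the mouse left out had the highest level of that gene in its group, so its removal moved the group away from control.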

How the results depend on the processing

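The number of the 9 genes called against control moved with the tool and the threshold. DESeq2 called 2 with imatinib (edgeR 1), 1 with nilotinib 10 mg/kg (edgeR 0) and 1 with ponatinib 10 mg/kg (edgeR 0). Limma voom with sample quality weights called 3, 3, 7 and 2 with imatinib, nilotinib 10 and 30 mg/kg and ponatinib 10 mg/kg. It called 3 between the ponatinib doses, 1 for ponatinib 10 mg/kg against nilotinib 30 mg/kg (Igfbp1, where edgeR called Pklr), 0 for ponatinib 10 mg/kg against imatinib and 3 for imatinib against nilotinib 30 mg/kg. When the share of reads outside genes was a covariate, 0 were left with imatinib and nilotinib 30 mg/kg, 1 with L-NAME (Pklr) and 0 for ponatinib 10 mg/kg against imatinib. Fitted on only the 2 groups compared, 2 were called with nilotinib 10 mg/kg, 1 with ponatinib 10 mg/kg, and 0 for ponatinib 10 mg/kg against nilotinib 10 or 30 mg/kg or imatinib. At an unadjusted p below 0.01 the counts were 2 with imatinib, 4 with nilotinib 10 mg/kg, 1 with ponatinib 10 mg/kg and 2 for imatinib against nilotinib 30 mg/kg. At an adjusted p below 0.01 they were 1 with L-NAME (Pklr) and 0 with imatinib and nilotinib 30 mg/kg, and 0 in the 4 direct comparisons between drugs. The share of all tested genes is not given for these settings, so the counts show only how the calls moved. The causes were not tested. Other size factors, no filter on low counts and a fit of 48 mice without L-NAME left every count within 1.5 times, and Irs2 with nilotinib 30 mg/kg was not called without the filter. Against control, estimates that were not called changed sign. With limma voom, Irs1, Ppargc1a and Igfbp1 with imatinib became 0.022, 0.0367 and 0.129, Igfbp1 became 0.14 with ponatinib 3 mg/kg and 0.18 with L-NAME. With the covariate, Igfbp1 became 0.0263 with imatinib and 0.38 with L-NAME, and G6pc 0.24 for nilotinib 30 mg/kg and 0.17 for ponatinib 10 mg/kg.

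Leaving out each mouse of the groups compared in turn was chosen after seeing the data. The count then ranged from 0 to 2 with imatinib, 0 to 1 with nilotinib 10 mg/kg, 0 to 5 with nilotinib 30 mg/kg, 0 to 1 with ponatinib 10 mg/kg and 2 to 4 with L-NAME. It was 0 to 1 for ponatinib 10 mg/kg against nilotinib 10 mg/kg, nilotinib 30 mg/kg and imatinib, and 0 to 1 for imatinib against nilotinib 30 mg/kg. Pklr and Irs2 with L-NAME were called in all 16 such fits. Pklr with imatinib was lost without control 2 or 8 or imatinib 1, 2, 5 or 6 (adjusted p up to 0.0798 by edgeR), and Fbp1 with L-NAME without control 3 or L-NAME 2 (up to 0.0791). Irs1 with L-NAME was lost without control 2, 4 or 7 or L-NAME 2, 6 or 8 (up to 0.0781). With nilotinib 30 mg/kg, Fbp1 was lost without control 3 or nilotinib 1, 2 or 7 (up to 0.0916) and Irs1 without control 2 or nilotinib 1, 2 or 5 (up to 0.0617). In that group Pklr was lost without control 2, 3, 5, 7 or 8 or nilotinib 1, 2, 3, 7 or 8 (up to 0.0990) and Irs2 without control 1, 5, 7 or 8 or nilotinib 1, 2, 3, 4 or 7 (up to 0.106). Of the direct comparisons of ponatinib 10 mg/kg, Pklr was lost against the equal nilotinib dose without ponatinib 3 or 4 or nilotinib 6 (up to 0.0569), and against nilotinib 30 mg/kg without ponatinib 3, 4 or 8 or nilotinib 2, 7 or 8 (up to 0.0881). Against imatinib it was lost without ponatinib 1, 3, 4 or 8 or imatinib 1, 2, 3, 5 or 6 (up to 0.122). Igfbp1 between imatinib and nilotinib 30 mg/kg was lost without any imatinib mouse but 8, or nilotinib 4, 5, 6, 7 or 8 (up to 0.124). Calls were gained for Irs2 with imatinib without imatinib 7 or 8, for Irs2 with ponatinib 10 mg/kg without ponatinib 4 or control 2, 3 or 6, for Igfbp1 with nilotinib 30 mg/kg without control 1 (1.65, adjusted p = 0.0428 by edgeR) and for Irs1 between imatinib and nilotinib 30 mg/kg without nilotinib 6. No paired analysis was possible because the labels give the groups no shared replicate numbers.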
